A study of Mus musculus with 2 samples.

Results

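The loci of 5 genes that mark tissues other than the macrophage were examined in maps of open chromatin from RAW264 cells, a mouse macrophage-like line. The genes were Alb (liver), Myod1 (skeletal muscle), Neurod1 (neurons and endocrine cells), Cd3e (T cells) and Pax5 (B cells). Each gene was given a fixed window on the mm9 build, and every DNase-seq peak that overlapped a window was taken as a member, whatever its score. The windows lay on chromosome 5 from 90.84 to 90.95 Mb (Alb), chromosome 7 from 53.58 to 53.68 Mb (Myod1), chromosome 2 from 79.24 to 79.35 Mb (Neurod1), chromosome 9 from 44.75 to 44.86 Mb (Cd3e) and chromosome 4 from 44.49 to 44.77 Mb (Pax5). Together they spanned 710 kb and held 5 of the 16447 peaks of RANKL-treated cells and 4 of the 13492 peaks of untreated cells.

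There were 2 libraries. The first came from RAW264 cells given GST-RANKL, a tagged form of the osteoclast-inducing cytokine RANKL, at 234 ng/ml for 24 hours, and the second from RAW264 cells without RANKL. DNase-seq cuts the chromatin of isolated nuclei briefly with the enzyme DNase I, so that short fragments come mostly from open sites, and a peak is a stretch where such fragments pile up. With 1 library per condition no value has a replicate error and no test across samples was possible. Intervals below are exact Poisson intervals for counts and exact Clopper-Pearson intervals for shares, at 95%; they cover counting error only and take peaks as independent. Read depth is unknown, so a site without a peak was below the authors' calling threshold and is not shown to be closed.

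Genes that specify one tissue are usually kept silent in the cells of another. Their promoters and enhancers then lack the bound factors that displace nucleosomes, and DNase I finds few sites to cut. Alb encodes serum albumin and is read in hepatocytes. Myod1 and Neurod1 encode basic helix-loop-helix factors that drive the muscle and the neuronal or endocrine programme and bind E-boxes. Cd3e encodes a signalling chain of the T cell receptor complex, and Pax5 encodes the paired-box factor that commits lymphoid progenitors to the B cell lineage and represses genes of other lineages, the macrophage among them.

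The promoters of 4 of the 5 genes were in the RefSeq promoter table used here (GRCm38.p6, from 250 bases before to 50 after the start of transcription), and they are shown because promoters rich in CpG are often open in many cell types while promoters poor in CpG are more often open in one. CpG dinucleotides are in capitals, and the sequences run 5′ to 3′ on the gene's strand. The coordinates beside them are GRCm38.p6 and cannot be set against the mm9 positions of the peaks.
Alb, chr5:90460620-90460919, plus strand: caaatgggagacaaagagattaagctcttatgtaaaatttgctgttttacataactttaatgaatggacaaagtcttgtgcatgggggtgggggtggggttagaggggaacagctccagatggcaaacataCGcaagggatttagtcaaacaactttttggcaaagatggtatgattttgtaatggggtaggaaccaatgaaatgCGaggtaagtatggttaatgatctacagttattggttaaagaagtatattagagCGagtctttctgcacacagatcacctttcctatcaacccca
Neurod1, chr2:79456587-79456886, minus strand: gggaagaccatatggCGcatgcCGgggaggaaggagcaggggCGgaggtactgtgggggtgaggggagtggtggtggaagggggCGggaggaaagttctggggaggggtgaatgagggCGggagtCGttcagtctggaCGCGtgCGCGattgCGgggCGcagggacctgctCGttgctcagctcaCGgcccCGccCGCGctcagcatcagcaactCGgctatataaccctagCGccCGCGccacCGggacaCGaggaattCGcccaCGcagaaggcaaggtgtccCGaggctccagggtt
Cd3e, chr9:45009562-45009861, minus strand: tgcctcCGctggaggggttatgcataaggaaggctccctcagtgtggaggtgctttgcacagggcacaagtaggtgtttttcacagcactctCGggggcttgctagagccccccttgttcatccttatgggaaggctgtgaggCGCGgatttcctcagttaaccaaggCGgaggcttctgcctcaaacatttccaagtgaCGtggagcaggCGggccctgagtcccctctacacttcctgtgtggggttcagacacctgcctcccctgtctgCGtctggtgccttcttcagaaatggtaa
Pax5, chr4:44710645-44710944, minus strand: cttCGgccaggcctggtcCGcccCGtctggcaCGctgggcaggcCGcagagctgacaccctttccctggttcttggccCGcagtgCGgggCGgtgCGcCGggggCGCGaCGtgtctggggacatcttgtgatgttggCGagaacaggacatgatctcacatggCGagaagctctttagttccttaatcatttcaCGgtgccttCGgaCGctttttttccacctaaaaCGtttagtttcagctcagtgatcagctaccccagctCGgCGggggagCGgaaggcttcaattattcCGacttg
The Alb promoter held 3 CpG and had a GC content of 40.0%, and only 23.3% of the 32841 promoters in the table held fewer CpG. The Cd3e promoter held 8 CpG, close to the table's median of 7. The promoters of Neurod1 and Pax5 were CpG-rich, with 26 and 23 CpG, more than 83.1% and 78.5% of promoters. The 4 promoters thus ran from CpG-poor to CpG-rich.

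Matches to 5 short motifs were counted on both strands. The E-box, CANNTG, was found 2 times in Alb, 1 time in Neurod1, 2 times in Cd3e and 1 time in Pax5, and it was present in 72.3% of all promoters. None of the 4 held the letters TATAAA (the TATA box, in 13.6% of all promoters), GAGGAAGT (PU.1, the myeloid and B cell factor, 3.2%), TGANTCA (AP-1, 7.81%) or the palindromic motif of the liver factor HNF1 (0.00913%). A missing match says only that those exact letters are not in these 300 bases.

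The peaks of both conditions were few in these windows, at a density close to that of the genome when all peaks were counted. With RANKL there were 5 peaks over the 5 windows, or 0.704 per 100 kb (interval 0.229 to 1.64), against a genome mean of 0.624 for that list. Without RANKL there were 4 peaks, or 0.563 per 100 kb (interval 0.154 to 1.44), against a genome mean of 0.512. For the RANKL list this closeness was not kept under 3 settings. The upper 50% by score left 1 peak, or 0.141 per 100 kb against a mean of 0.312. Equal numbers of peaks per list left 2 peaks, or 0.282 against 0.512. Windows narrowed by 5 kb at both ends, a setting chosen after seeing the data, left 2 peaks, or 0.303 against 0.624. A count of 1 has an interval of 0.0253 to 5.57 peaks and a count of 2 one of 0.242 to 7.22. A density below the genome mean was thus not resolved. At the genome mean, 4.43 and 3.63 peaks would fall in 710 kb with and without RANKL. Peaks were sparse everywhere: at least 1 peak was present in 29.7% of the 26335 tiles of 100 kb on chromosomes 1 to 19 and X with RANKL and in 27.2% without RANKL. With RANKL 3 of the 5 windows held a peak, and without RANKL the same 3 did. Longer tiles were empty less often. At 280 kb, the length of the Pax5 window, 50.6% had no RANKL peak and 56.6% no peak without RANKL. A tile of 100 kb without peaks was therefore the usual state of the genome at this number of peaks. At 280 kb, tiles with and without peaks were closer in number. The counts do not set the 5 loci apart from the genome.

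**Figure D1:**
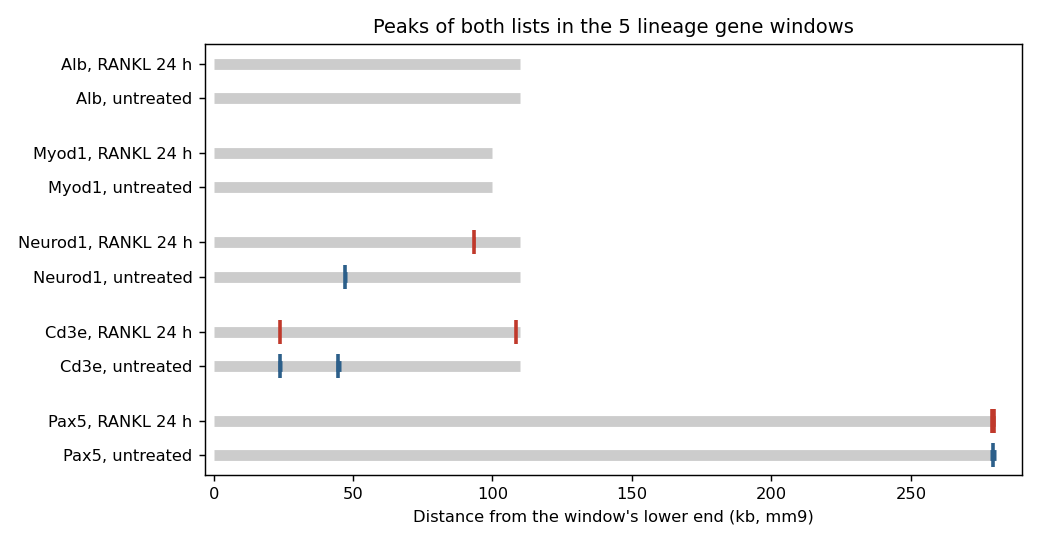
Positions of the peaks in each window, in kb from the window's lower end on mm9; grey bars are the windows and coloured ticks the centres of the peaks of RANKL-treated (red) and untreated (blue) cells. The Alb and Myod1 bars carry no mark, the 2 Neurod1 marks lie apart, and the Pax5 marks lie at the upper end of a window of 280 kb.

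**Figure D2:**
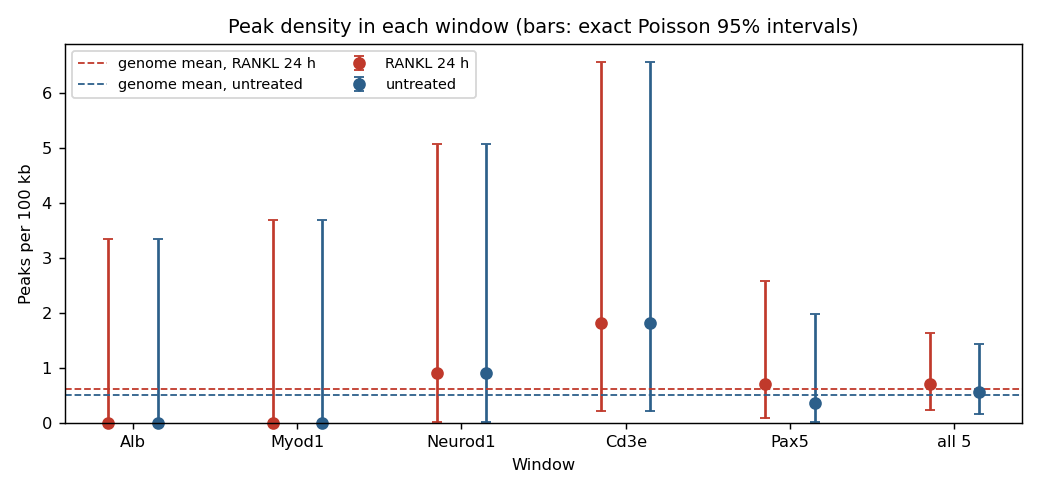
Peaks per 100 kb in each window and in all 5 together, with exact Poisson 95% intervals; dashed lines are the genome means of each list. All intervals take in the genome mean of their list, and those of single windows are wide because each rests on 0 to 2 peaks.

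The liver and muscle windows held no peak in either condition. The Alb window, 110 kb long, had 0 peaks with RANKL and 0 without RANKL, and a count of 0 allows up to 3.69 peaks in each. Of all tiles of that length, 68.6% had no RANKL peak and 71.7% no peak without RANKL. The stretch without a peak of either list around Alb ran from 90796670 to 91023819 on chromosome 5, or 227.2 kb. Of the 19039 peak-free stretches on chromosomes 1 to 19 and X, 11.1% were as long, and these held 68.9% of all peak-free sequence.

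Just below the Alb window, 44.3 kb away, a RANKL peak lay at 90795604 to 90795741 (score 58.79); it overlapped a peak without RANKL at 90795145 to 90796669 (score 68.68). The nearest peaks above were a RANKL-only peak 73.8 kb away and, in the other list, a peak 90.1 kb away. The 500 kb above the window held 15 RANKL peaks and 6 peaks without RANKL, while the 500 kb below held 2 and 2. Peaks are not counts of separate sites, since a broad peak without RANKL can hold several narrow RANKL peaks. The RANKL list was also the denser over the whole genome, with means of 0.624 against 0.512 per 100 kb. In the order of the gene table, the next protein-coding genes above Alb are Afp (alpha-fetoprotein), Afm (afamin) and Albfm1, all of the albumin family, and the nearest protein-coding gene below is Ankrd17. No peak in the window was there to assign to any of them.

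The Myod1 window, 100 kb long, also had 0 peaks with RANKL and 0 without RANKL, like 70.3% and 72.8% of tiles of its length. Its peak-free stretch ran from 53440272 to 53702502 on chromosome 7, or 262.2 kb. Taken alone, the RANKL list had no peak over 413.0 kb here, and the list without RANKL none over 421.1 kb. The closest peak outside was RANKL-only, at 53702503 to 53702671, 22.5 kb above the window, with a score of 65.9. The next protein-coding genes in the table are Kcnc1, a potassium channel gene, and Sergef above, and Otog, a gene of the inner ear, below. Kcnc1 has a promoter with 41 CpG, more than 96.5% of promoters, so a CpG-rich promoter sits next to Myod1 in gene order; its place relative to the window on mm9 was not tested.

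Both Neurod1 peaks were weak and lay in different places. At least 1 peak was found in 31.4% of tiles of this window's length, 110 kb, with RANKL and in 28.3% without RANKL. The peak with RANKL, at 79333434 to 79333572 on chromosome 2, was 139 bp wide with a score of 60.06, at rank 11250 of 16447 in its list. The peak without RANKL, at 79286712 to 79287874, was 1163 bp wide with a score of 50.29, at rank 13422 of 13492, just above that list's lowest score of 50.0. The gap between them was 45.6 kb, and each was found in one list only. The score is the authors' own value and its definition is not given in the sources used here, so it is compared within a list only. When peaks were ranked by score and split into 10 groups of equal size per list, 52.3% of the group that holds the RANKL peak was shared, and 25.5% of the group that holds the other.

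Outside the Neurod1 window there was no peak of either list for 100 kb on each side. The nearest peaks lay 144 kb below and 109 kb above with RANKL, and 142 kb below and 108 kb above without RANKL, and all 4 were shared. The genes nearest to Neurod1 in the table are the pseudogene Gm13673 below and the long noncoding RNA Gm39867 above. The first protein-coding genes are Cerkl below and Itprid2 above. Whether a peak here lies at Neurod1, at a noncoding neighbour or between genes cannot be read from the files, which name no genes.

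The T cell window held the most peaks per length of the 5, although the intervals of all windows overlap and the RANKL order rested on weak peaks. With both lists cut to the same number of peaks, the RANKL density was 0 in the Cd3e window, 0.909 per 100 kb in the Neurod1 window and 0.357 in the Pax5 window. One of the 2 Cd3e peaks missed this cut only just, at rank 13497 where 13492 peaks were kept. In the upper 50% by score the RANKL density was 0 in the Cd3e window and 0.357 in the Pax5 window. With windows narrowed by 5 kb at both ends, chosen after seeing the data, Cd3e and Neurod1 both had 1.0. In the Cd3e window there were 2 peaks with RANKL and 2 without RANKL, or 1.82 per 100 kb in each (interval 0.22 to 6.57). At least as many were found in 16.8% of tiles of that length with RANKL and in 15.0% without RANKL. One site was common to the conditions. Its RANKL peak, at 44773550 to 44773772 on chromosome 9, was 223 bp wide with a score of 54.53 (rank 13497 of 16447). It lay wholly inside the peak without RANKL at 44772998 to 44774695, 1698 bp wide with a score of 114.48 (rank 5653 of 13492), and the centres were 185 bp apart.

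The other 2 peaks of the Cd3e window were found in one list each and stood near the lower end of their lists by score. Most peaks with such scores were in one list only. In the 10 groups by score, 34.2% of the group that holds the RANKL peak was shared, and 30.9% of the group that holds the other. The RANKL-only peak at 44858271 to 44858418 had a score of 50.73 (rank 15910 of 16447) and lay 1.58 kb inside the upper end of the window. The peak found only without RANKL, at 44793955 to 44795571, had a score of 57.57 (rank 12062 of 13492), with 20.2 kb to the closest peak of the RANKL list. Between the 2 lay 62.7 kb without a peak of either list, 57.0% of the window.

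Cd3e has close neighbours in gene order. Below it in the table come Cd3d and Cd3g, which encode the delta and gamma chains of CD3, then the pseudogene Gm19121 and Ube4a, a ubiquitin ligase gene used in many tissues. Above it come Mpzl2 and Mpzl3, genes of adhesion proteins, and Jaml, an adhesion gene of leukocytes. The shared peak, in the lower part of the window, may belong to any of the lower group or to Cd3e. The RANKL-only peak at the upper end may belong to Mpzl2, Mpzl3 or Cd3e. The peak found only without RANKL lay between them and may belong to Cd3e or to a neighbour on either side. With the mm9 gene positions not used here, these owners were not tested. Of the promoters of the lower group, that of Ube4a held 20 CpG, Cd3g 4 and Cd3d 1. This neighbourhood was also the fullest of the 5: the 500 kb on each side held 22 peaks with RANKL and 22 without RANKL, or 2.2 per 100 kb in each list.

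The B cell window was empty but for one strong site at its edge. The Pax5 window, 280 kb long, held 2 RANKL peaks, or 0.714 per 100 kb (interval 0.0865 to 2.58), and 1 peak without RANKL, or 0.357 per 100 kb (interval 0.00904 to 1.99). At least as many were found in 34.6% of tiles of that length with RANKL and in 43.4% without RANKL. The stronger RANKL peak, at 44769457 to 44770032 on chromosome 4, was 576 bp wide with a score of 306.48 (rank 738 of 16447). The weaker one, at 44768832 to 44769010, was 179 bp wide with a score of 51.34 (rank 15534). Both lay wholly inside the peak without RANKL at 44768310 to 44770436, which was 2127 bp wide with a score of 274.69 (rank 586 of 13492). The 3 peaks thus mark 1 site, called in both conditions, whose stronger RANKL peak and peak without RANKL were each in the highest-scoring 5% of their list. Peaks this strong were mostly shared. In the 10 groups by score, 95.3% of the group that holds the stronger RANKL peak was shared. The value was 99.0% for the peak without RANKL and 34.2% for the weaker RANKL peak.

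All the Pax5 peaks were at this site, on the border of the window. The broad peak without RANKL ran 436 bp past the upper end of the window, and the stronger RANKL peak ran 32 bp past it. Below it, the remaining 99.4% of the window had no peak in either list. The peak-free stretch there ran from 44314627 to 44768309, or 453.7 kb, and 5.5% of the 19039 stretches were as long, which held 55.5% of all peak-free sequence. With each window narrowed by 5 kb at both ends, a setting chosen after seeing the data, the Pax5 window had 0 peaks with RANKL and 0 without RANKL. Above the site, the next peaks lay 141 kb from the window with RANKL (score 51.42, RANKL-only) and 224 kb from it without RANKL.

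In gene order, the only protein-coding gene within 5 places above Pax5 is Zcchc7, which encodes a zinc knuckle protein known in human cells for its part in nuclear RNA surveillance. The strands in the promoter table differ, minus for Pax5 and plus for Zcchc7, so the 2 genes run away from each other with their starts on the facing sides. By order of lower end, the microRNA gene Mir5120, 2 long noncoding RNAs and a pseudogene are listed after Pax5 and before Zcchc7. The strong site, at the upper end of the window, may therefore belong to Zcchc7, to a noncoding neighbour or to Pax5, and the owner was not tested. In human B cells, an enhancer of PAX5 is known to lie within ZCCHC7. The promoters of Zcchc7 and of Ube4a, the CpG-richest of the lower Cd3e neighbours named above, are shown for comparison, from the same table and build, with CpG in capitals.
Ube4a, chr9:44965551-44965850, minus strand: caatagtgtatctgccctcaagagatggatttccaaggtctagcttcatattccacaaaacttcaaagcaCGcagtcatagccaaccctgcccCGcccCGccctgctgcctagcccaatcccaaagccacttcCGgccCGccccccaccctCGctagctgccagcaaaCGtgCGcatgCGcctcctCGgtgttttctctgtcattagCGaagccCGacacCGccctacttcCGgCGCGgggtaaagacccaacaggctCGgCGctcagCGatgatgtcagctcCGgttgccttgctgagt
Zcchc7, chr4:44756309-44756608, plus strand: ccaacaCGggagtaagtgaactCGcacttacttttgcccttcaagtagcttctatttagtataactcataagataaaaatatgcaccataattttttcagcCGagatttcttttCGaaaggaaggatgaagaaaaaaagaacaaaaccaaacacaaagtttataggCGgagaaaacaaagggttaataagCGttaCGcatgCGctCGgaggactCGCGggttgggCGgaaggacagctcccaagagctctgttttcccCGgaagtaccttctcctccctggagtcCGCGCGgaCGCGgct
Zcchc7 held 18 CpG in 46.0% GC, a ratio of observed to expected CpG of 1.13, and Ube4a held 20 CpG in 59.3% GC, a ratio of 0.812. For the lineage genes this ratio was 0.272 in Alb, 0.333 in Cd3e, 0.837 in Neurod1 and 0.882 in Pax5. It was 0.183 in Cd3g and 0.0774 in Cd3d, so these neighbours lay below all 4 lineage genes, while Pax5 and Neurod1 lay between Ube4a and Zcchc7.

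**Figure D3:**
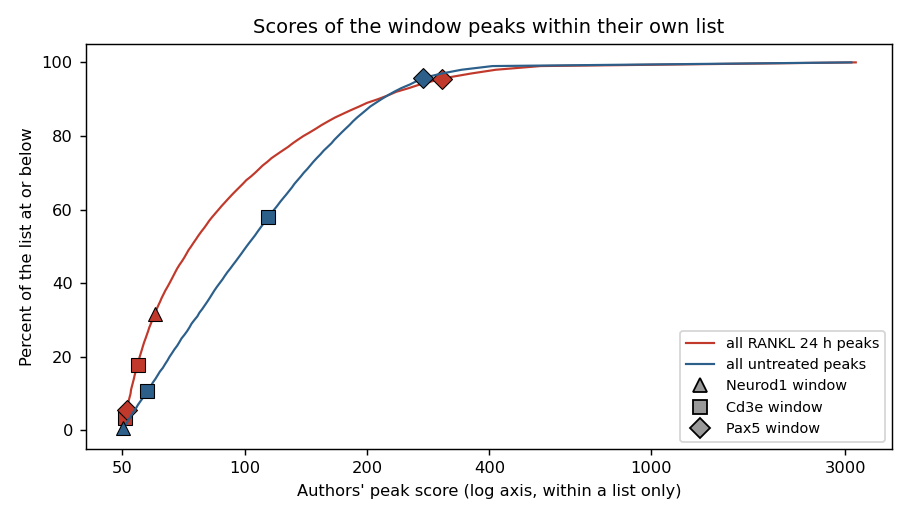
Authors' peak score (log axis) of the window peaks against the percent of their own list at or below that score; lines are all peaks with RANKL (red) and without RANKL (blue), and symbols give the window. The Pax5 site stands at 95.5% of the RANKL list and 95.7% of the list without RANKL, and the Neurod1 peak without RANKL at 0.526%.

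Across the windows, the share of peaks found in both conditions was near that of the whole lists, with wide intervals. With RANKL 3 of 5 peaks were shared, which needed 1 bp of overlap with the other list (60.0%, interval 14.7 to 94.7%), against 65.7% of the whole list. Without RANKL 2 of 4 were shared (50.0%, interval 6.76 to 93.2%), against 60.7% of the whole list. The 3 shared RANKL peaks lay wholly inside 2 broad peaks, so both lists shared 2 sites, 1 in the Cd3e window and 1 in the Pax5 window. Of the peaks found in one list only, 2 were with RANKL and 2 without RANKL, in the Neurod1 and Cd3e windows. By score, 4 of the 5 RANKL peaks and 2 of the 4 peaks without RANKL were under the median of their list (73.89 and 101.1). The highest score of a peak in one list only was 60.06 with RANKL and 57.57 without RANKL.

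The widths of the window peaks followed those of their lists. The median was 179 bp with RANKL, against 233 bp for the whole list, and 1657.5 bp without RANKL, against 1738 bp. At the 2 shared sites the peak without RANKL was 7.61 times as wide as the Cd3e RANKL peak, and 3.69 and 11.9 times as wide as the Pax5 RANKL peaks. Since the lists differ in this way throughout, 1 broad peak can hold several RANKL peaks, as at Pax5, and the RANKL count there is higher for 1 site.

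The surroundings of the windows held more peaks per length than the genome as a whole. Over the 500 kb on each side of the 5 windows there were 77 RANKL peaks, or 1.54 per 100 kb (interval 1.22 to 1.92), and 66 peaks without RANKL, or 1.32 per 100 kb (interval 1.02 to 1.68). Both lay above the genome means of 0.624 and 0.512. Peaks cluster along the genome: 70.3% of the 100 kb tiles held no RANKL peak, and the fullest held 40. Intervals that take peaks as independent are therefore likely too narrow here. How often stretches of this length elsewhere hold as many peaks was not tested. The intervals of the windows, 0.229 to 1.64 with RANKL and 0.154 to 1.44 without RANKL, overlap those of the surroundings, so a lower density inside the windows was not resolved. Closer in, the 100 kb on each side held 10 RANKL peaks and 6 peaks without RANKL, or 1.0 and 0.6 per 100 kb. Of these, 5 and 4 were beside the Cd3e window and 4 and 2 beside the Alb window, and the 100 kb on each side of Neurod1 and Pax5 held 0 in both lists.

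**Figure D4:**
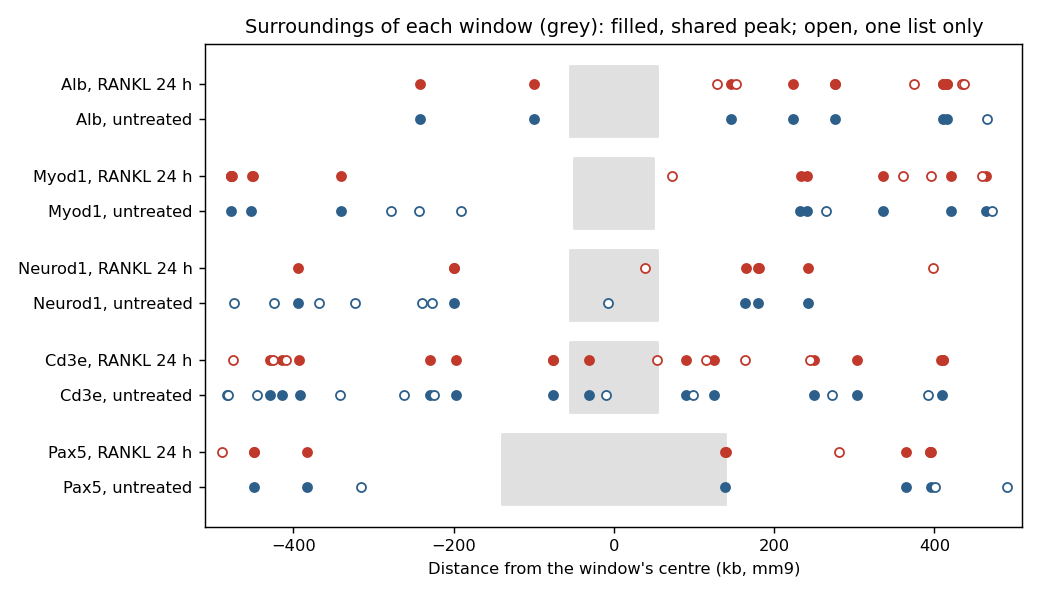
Peaks within 500 kb of each window's centre on mm9, with the window in grey; filled circles are peaks shared by the lists and open circles peaks of one list only, with RANKL in red and without RANKL in blue. The grey Alb and Myod1 windows are empty, and the 1 Mb around Cd3e holds the most peaks, 22 with RANKL and 22 without RANKL.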

How the data were processed

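DNase-seq peak lists were used from 2 libraries of RAW264 cells, 1 with and 1 without RANKL. The submitters' processing notes name the build mm9 and the tools Bowtie2 2.0.0 and MACS2; of the calling threshold and any control nothing is given in the sources used here. The deposited lists give a position and a score per peak; the score is the authors' own and was ranked within a list only. Positions were turned to 1-based. Windows, lists and members were chosen with earlier results of these data known. All 5 genes and all peaks overlapping their windows are named; neighbours are the genes within 5 places in a GRCm38.p6 table, by name and order only, since no mm9 annotation was used here. For the same reason the macrophage identity of the cells was not checked.

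The genome mean divides all peaks by 2637 Mb, the summed chromosome lengths up to the last peak. A peak was shared when it overlapped the other list by 1 bp. Overlap code was tested on simulated data. Python 3.11.15, numpy 2.4.6, pandas 2.3.3, scipy 1.17.1 and matplotlib 3.10.9 were used. Alternatives were other windows, overlap rules, score limits and merging of peaks.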

Additional observations from a re-analysis of the deposited data

How the results depend on the processing

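Under the alternatives 98 values were computed, and 65 of them were within 1.5 times those reported. The 65 include values of 0 set against 0 in the Alb and Myod1 windows, mostly under settings that could not add peaks. Over the 5 windows together, the upper 50% of each list by score left 0.141 peaks per 100 kb with RANKL and 0.282 without RANKL, with 1 of 1 and 1 of 2 peaks shared (genome means 0.312 and 0.256). A list cut to its upper 50% has a lower mean by construction. The RANKL count fell further, to 1 peak of 5, a count too small to resolve a lower density. Equal numbers of peaks from each list left 0.282 per 100 kb with RANKL, since 3 of its 5 peaks ranked below the cut. The RANKL peak of the shared Cd3e site missed it only just, at rank 13497 with 13492 peaks kept. An overlap of 50% of both peaks left 0 shared with RANKL and 0 without RANKL, since narrow peaks cannot fill broad ones. For this rule and for the upper 50% by score, the shared part of the whole lists is not given here. These shared counts therefore have no background to be read against. Windows narrowed by 5 kb at both ends, chosen after seeing the data, gave 0.303 per 100 kb with RANKL, because 3 of 5 RANKL peaks lay within 5 kb of an end, and left 1 shared peak with RANKL and 1 without RANKL. Widening the windows by 50 or 100 kb, merging peaks closer than 1 kb and counting by peak centre kept both densities over the 5 windows within 1.5 times. After merging, each list had 4 peaks in the windows, or 0.563 per 100 kb. The genome means were then 0.517 with RANKL and 0.509 without RANKL, so the lists differed little in number once close peaks were joined. Settings that did not widen the windows can only keep or remove peaks, so Alb and Myod1 had to stay at 0 under them. Widened by 50 and 100 kb on each side, the Alb window held 1 and 4 RANKL peaks, and 1 and 2 peaks without RANKL. The Myod1 window held 1 RANKL peak at both widths and 0 peaks without RANKL. No paired analysis was possible because each condition had 1 library. Unknown read depth limits every statement on windows without peaks.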
